A study of Danio rerio with 48 samples.

Results

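The cytosolic ribosomal protein genes were followed through 48 single zebrafish (Danio rerio) embryos, wild type or mutant for noc2l, at 24, 36 and 48 hours post fertilisation (hpf). Members were all entries of the count table whose symbol begins with rpl or rps and a digit, plus rplp0, rplp1, rplp2, rplp2l and rpsa, leaving out 14 names such as the S6 kinases, rps27l and rpl7l1. The rule gave 80 of 31658 entries, 46 of the large and 34 of the small ribosomal subunit, and all 80 had enough counts to be tested. It used names only, no measured value. Wild types carried noc2l +/+ and mutants noc2l -/-, and every embryo came from family 232 of the RIKEN WT strain, labelled with the allele agu79. There were 6 wild types and 9 mutants at 24 hpf, 8 and 9 at 36 hpf, and 9 and 7 at 48 hpf, each embryo giving 1 library from the whole body. As all embryos share a family and an allele, the values describe that family; what the allele changes in the gene is not stated in the labels.

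Each cytosolic ribosome holds 1 copy of most ribosomal proteins, so cells need their messenger RNAs in near equal supply. In vertebrates these messengers start with a run of pyrimidines, the TOP motif, through which nutrient signals set their translation. Some of the proteins also act outside the ribosome, as when free RPL5 and RPL11 bind the ubiquitin ligase MDM2 in human cells. Noc2l is the counterpart of yeast Noc2, which works in the assembly of the precursor of the large subunit.

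Libraries held between 797752 and 11016313 counts, with a median of 5985646, and counts came mainly from the 3′ ends of polyadenylated RNA, so they do not grow with transcript length. Levels are in CPM, the counts of a gene per 1000000 counts of its library, after TMM scaling. The noc2l transcript itself fell in mutants at each age, by 1.93, 1.52 and 1.72 on the log2 scale. The library labelled mutant embryo 5 at 24 hpf went against this with 16.3 CPM of noc2l, inside the wild-type range of 6.54 to 31.9 CPM. The lower end of that range is 6 counts in wild-type embryo 4. At 36 and 48 hpf the genotypes overlapped too: mutants reached 10.6 and 6.99 CPM, and wild types began at 6.70 and 5.71 CPM. In 3 libraries the total lay under 1/3 of the median: at 24 hpf in embryo 4 of the wild types and embryo 8 of the mutants, and at 48 hpf in embryo 9 of the wild types. In bulk RNA of whole embryos, fewer cells of a type and less RNA per cell cannot be told apart. Where no other test is named, differences are log2 values from edgeR's quasi-likelihood test with Benjamini-Hochberg adjustment over 16431 genes, at an adjusted p of 0.05. A positive genotype difference means higher in mutants.

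The 80 genes together took a large part of the counts, and that part shrank between 36 and 48 hpf. At 24 hpf their share of all counts ran from 14.3% to 22.8% in wild types (median 21.7%) and from 21.3% to 28.1% in mutants (median 22.1%). At 36 hpf it ran from 18.9% to 23.3% (median 20.6%) in wild types and from 18.5% to 22.7% (median 20.9%) in mutants. At 48 hpf it ran from 13.3% to 17.5% (median 16.5%) in wild types and from 16.3% to 18.6% (median 18.3%) in mutants. All 9 wild types at 48 hpf lay below all 8 at 36 hpf, and 5 of 7 mutants at 48 hpf lay below all 9 at 36 hpf. At 48 hpf 6 of 7 mutants lay above every wild type. The means ± SD at 48 hpf were 16.3% ± 1.31 (n = 9) and 18.03% ± 0.797 (n = 7), and without the shallow wild-type embryo 9 the wild-type mean was 16.7% ± 0.708 (n = 8).

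**Figure D1:**
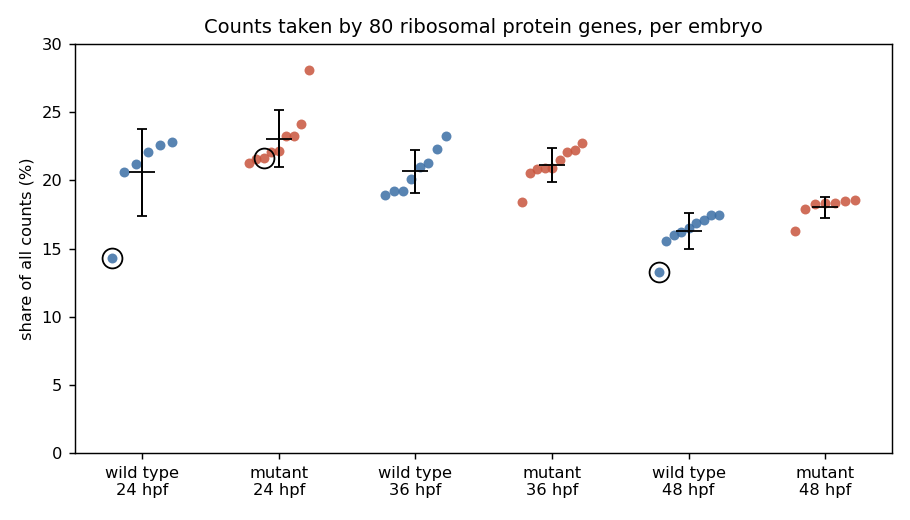
Share of all counts (%, vertical axis) taken by the 80 ribosomal protein genes in every embryo, by genotype and age, with 1 point per embryo, the mean and bars of 1 SD. Circles mark the 3 shallow libraries. All 9 wild types at 48 hpf sit below all 8 at 36 hpf, and 6 of 7 mutants at 48 hpf sit above every wild type of that age.

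Within a group the genes moved together from embryo to embryo. Among the 79 members other than rps8b, 79.0% of the variance within groups lay in 1 value per embryo, their mean log2 level. At 24 hpf that value lay farthest from its group in wild-type embryo 4 (-0.65) and in the library labelled mutant embryo 5 (0.51). Next came wild-type embryo 9 at 48 hpf (-0.38). Both of these wild-type libraries were shallow, and the part of the variance without these embryos was not computed. The within-group SD of a member was 0.21 at the median on the log2 scale, and 0.40 for rpl22l1, the highest. With the embryo's mean removed, the median SD was 0.084, and rpl22l1 kept the highest, 0.31. The copy rps8b was left out because it lay close to 0: it made up at most 0.126% of the rps8a and rps8b counts in any embryo.

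In wild types 75 of 80 genes fell from 36 to 48 hpf, where 7.74% of all tested genes fell. The median change of the 80 was -0.44, against 0.01 over all tested genes. The largest falls were those of rpl29, rps24, rps12 and rpl39. Mutations of human RPS24 cause Diamond-Blackfan anaemia, a failure of red cell production, and the rps12 product lies at the beak of the small subunit. The rpl29 level ran from 1485 to 2541 CPM (median 1815) at 36 hpf and from 942 to 1446 CPM (median 1221) at 48 hpf, so the 2 ages did not overlap. It fell by 0.68 (SE 0.14, adjusted p = 0.000328). For rps24 the fall was by 0.55 (SE 0.09, adjusted p = 5.52e-06), from 2805 to 4035 CPM down to 1825 to 2493 CPM. The 5 genes that did not pass were rpl22l1 (-0.53, adjusted p = 0.0673), rps27.2 (-0.26), rps26 (-0.25), rplp2 (-0.21) and the near-absent rps8b.

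Mutants fell too, in fewer genes that passed the test. From 36 to 48 hpf 47 of 80 fell in mutants, where 5.26% of all tested genes fell, with a median change of -0.30 against 0.00 over all genes. The counts of genes in wild types and mutants do not by themselves show a difference. Tested directly, the change of the genotype difference from 36 to 48 hpf passed for none of the 80 genes, where 0.0548% of all genes passed, and 0 had an unadjusted p under 0.05, against 3.999% of all genes. DESeq2 and limma voom called 0 there as well. The median of that change was 0.13, and 73 of 80 values were positive, as were 49.2% over all genes. Since the members moved together within embryos, their signs are not separate observations. A fit on the groups compared alone also called 0. There, however, 10 of 79 tested members had an unadjusted p under 0.05, as did 5.3996% of all genes. The median in that fit was 0.15, and 74 of 79 values were positive. The count at an unadjusted p thus depends on the fit. Large falls in mutants included rpl22l1 by 0.79 (SE 0.21, adjusted p = 0.00846), rpl29 by 0.55, rpl12 by 0.53 and rpl10a by 0.50.

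**Figure D2:**
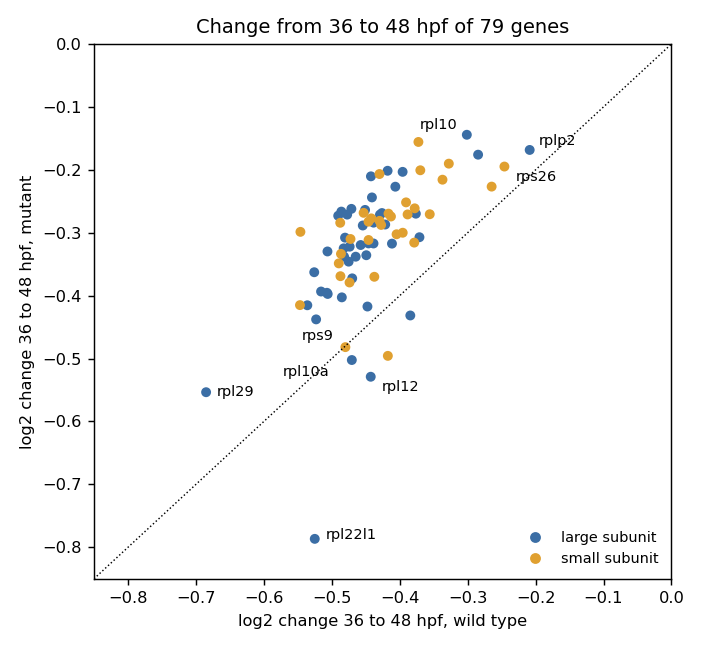
Change from 36 to 48 hpf (log2) in wild types (horizontal axis) and mutants (vertical axis) of 79 ribosomal protein genes, rps8b left out, coloured by subunit, with the diagonal of equal change dotted. Nearly all points lie above the diagonal, with wild-type changes near -0.44 and mutant changes near -0.30, and rpl22l1, rpl12 and rpl10a lie below it.

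Genes of both subunits fell. In wild types 44 of 46 large-subunit genes fell, with a median of -0.46, and 31 of 34 small-subunit genes, with a median of -0.42. In mutants 30 of 46 and 17 of 34 fell, where 5.26% of all tested genes fell, with medians of -0.32 and -0.28. Related messengers gave mixed counts. Of 32 tested TOP messengers that encode other proteins, such as elongation factors, 16 fell and 2 rose in wild types from 36 to 48 hpf (median -0.28). Over all tested genes 7.74% fell and 6.77% rose in that step. The 74 genes of mitochondrial ribosomal proteins had a median change of 0.06 in that step. Of them 45 had a positive value, as had 51.1% of all tested genes.

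Markers of dividing cells moved with this fall. All 6 markers of proliferating cells (pcna, mki67, top2a, ccnb1, mcm2 and mcm5) fell in wild types from 36 to 48 hpf, with a median of -0.71. In mutants 5 of 6 fell. Of all tested genes 7.74% fell in wild types and 5.26% in mutants. Their summed level ran from 1152 to 1336 CPM at 36 hpf and from 661 to 849 CPM at 48 hpf in wild types. In mutants it ran from 1008 to 1238 CPM and then from 623 to 885 CPM, and no marker was at 0 in all libraries. Over the same step 4 of 6 neuronal markers rose in wild types, where 6.77% of all genes rose, and 4 of 6 epidermal markers fell, where 7.74% did. In mutants 4 of 6 neuronal markers rose, where 780 of 16431 genes rose, and 0 of 6 epidermal markers fell (median -0.10). Of 6 lens markers in wild types 4 rose and 1 fell, and of 6 skeletal muscle markers 2 rose. Of 6 erythroid markers 2 fell, and of 6 yolk syncytial layer markers 1 rose and 2 fell. The part of these tissues in the ribosomal protein values was not tested.

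From 24 to 36 hpf little passed the test. In wild types 1 of 80 genes rose, where 4.95% of all genes rose. That gene was rplp2, whose protein forms the flexible stalk of the large subunit together with the products of rplp0 and rplp1. The rplp2 level ran from 1017 to 1486 CPM (median 1270) at 24 hpf and from 1485 to 1931 CPM (median 1781) at 36 hpf, so that the groups barely touched. It rose by 0.45 (SE 0.10, adjusted p = 0.00146) in wild types and by 0.26 (SE 0.09, adjusted p = 0.0462) in mutants. The stalk base rplp0 gave 0.02 and rplp1 gave 0.21 in wild types, neither past the threshold. The related entry rplp2l took 72.0% ± 4.17 (n = 6) of the rplp2 and rplp2l counts at 24 hpf, 67.7% ± 1.63 (n = 8) at 36 hpf and 63.9% ± 1.15 (n = 9) at 48 hpf in wild types. Reads could be divided between such near-identical entries by the authors' counting, so the split is uncertain.

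In mutants from 24 to 36 hpf 1 gene rose, rplp2, where 6.09% of all genes rose, and 2 fell, where 4.97% of all genes fell. The 2 were rpl22l1, by 0.75 (SE 0.19, adjusted p = 0.00606), and rpl10a, by 0.30 (SE 0.10, adjusted p = 0.0485). Without the library labelled mutant embryo 5 the change of rpl10a was -0.20 (adjusted p = 0.231), so that call rests on it. Fitted on the groups compared alone, none of the 3 genes passed.

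At 24 hpf most of the genes stood slightly higher in mutants, yet none passed the test. The median difference was 0.24, against 0.02 over all genes, and 77 of 80 differences were positive, as were 52.2% over all genes. These signs are not separate observations, since the members moved together within embryos. edgeR called 0 of 80, where 0.122% of all genes were called in either direction. An unadjusted p under 0.05 was found for 61 of the 80 genes, and for 7.97% of all genes. That fit shares 1 spread per gene over all groups. Fitted on the groups compared alone, 8 of 79 tested members had such a p, as did 4.77% of all genes. The median there was 0.23. With limma voom 0 were called and with DESeq2 1, rpl11. Single libraries carried much of the size: without wild-type embryo 4, which had the lowest share (14.3%) and the lowest total, the median was 0.13 and 7 of the 80 had an unadjusted p under 0.05, as did 6.36% of all genes. Without the library labelled mutant embryo 5, which had the highest share (28.1%), the median was 0.16 and 17 of the 80 did, as did 6.94% of all genes. The mean share was 20.6% ± 3.19 in wild types (n = 6) and 21.9% ± 0.930 without embryo 4 (n = 5). In mutants it was 23.1% ± 2.10 (n = 9) and 22.4% ± 0.995 without embryo 5 (n = 8).

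At 36 hpf the set did not stand apart by genotype. The median difference was -0.01, and 1 of 80 genes was lower, rpl22l1, where 0.0913% of all genes were lower. None was higher in edgeR, limma voom or DESeq2, and 5 of the 80 differed in either direction at an unadjusted p under 0.05, as did 7.59% of all genes. The change of the genotype difference from 24 to 36 hpf had a median of -0.25. It passed for none of the 80 genes in edgeR, limma voom or DESeq2, where 0% of all genes passed, although 22 had an unadjusted p under 0.05, as did 5.74% of all genes. Without the shallow libraries the median was -0.17 and 7 had such a p, as did 5.67% of all genes. Fitted on the groups compared alone, 8 of 79 tested members did, as did 4.67% of all genes.

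At 48 hpf 2 genes were higher in mutants, rpl11 and rpl19, where 1.49% of all genes were higher, and 1 was lower, rpl22l1, where 0.712% of all genes were lower. The median difference of the 80 was 0.14, against -0.02 over all genes, and 72 of 80 were positive, as were 47.4% over all genes. Here too the signs of members that moved together are not separate observations. In the fit on all groups the number called is near the background share. There 15 of the 80 had an unadjusted p under 0.05, as did 11.3% of all genes. Fitted on the groups compared alone, 5 of 79 tested members were higher and 3 lower, where 387 and 247 of 14829 genes were. In that fit 41 of 79 had an unadjusted p under 0.05, as did 15.2% of all genes. Both counts thus depend on the fit. Mutants at 48 hpf were also lower on a score of developmental age, 1.66 ± 0.330 (n = 7) against 2.25 ± 0.257 (n = 9). That score is the mean log2 level of 200 genes that rise most minus that of 200 that fall most in wild types from 24 to 48 hpf, ribosomal protein genes left out. Mutant means were lower at 24 hpf too, -2.36 ± 0.394 (n = 9) against -2.07 ± 0.440 (n = 6). At 36 hpf they were -0.26 ± 0.537 (n = 9) against -0.02 ± 0.426 (n = 8). With the score as a covariate the median difference of the set was 0.04 at 48 hpf, 0.20 at 24 hpf and -0.03 at 36 hpf. Score and genotype differ together at 48 hpf, so their parts cannot be told apart. From 24 to 48 hpf the change of the genotype difference passed for 0 of 80 genes in edgeR, limma voom and DESeq2, where 0.0609% of all genes passed, and 7 had an unadjusted p under 0.05, as did 7.21% of all genes.

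**Figure D3:**
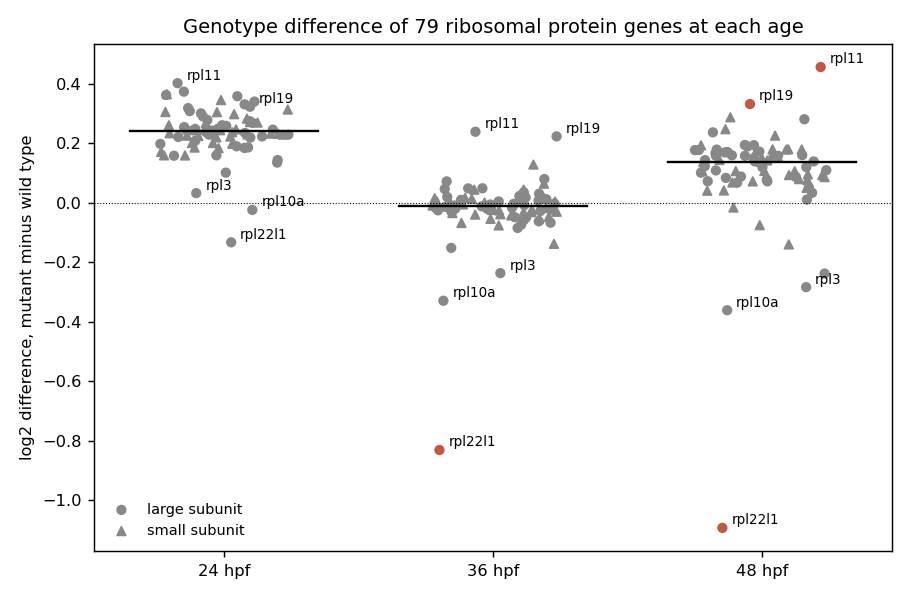
Genotype difference (log2, mutant minus wild type, vertical axis) of 79 ribosomal protein genes at 24, 36 and 48 hpf, with 1 point per gene, circles for the large and triangles for the small subunit. Bars are medians, near 0.24, -0.01 and 0.14, and red points passed the test: rpl22l1 at 36 and 48 hpf, and rpl11 and rpl19 at 48 hpf.

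Apart from the near-absent rps8b, the gene with the largest genotype difference at 36 and 48 hpf was rpl22l1. It encodes a paralogue of Rpl22, an RNA-binding protein of the large subunit, and in mouse Rpl22 represses the messenger of Rpl22l1. At 24 hpf the rpl22l1 level ran from 675 to 1204 CPM (median 927) in wild types and from 444 to 1937 CPM (median 635) in mutants. The 2 groups overlapped, with 5 of 9 mutants below every wild type, and the difference was -0.13 (SE 0.21, adjusted p = 0.929). Without the library labelled mutant embryo 5, which had the highest level, it was -0.38 (adjusted p = 0.693), and without wild-type embryo 4 it was -0.21 (adjusted p = 0.932). At 36 hpf it ran from 772 to 1070 CPM (median 895) in wild types and from 362 to 762 CPM (median 446) in mutants. At 48 hpf it ran from 549 to 713 CPM (median 634) in wild types and from 226 to 358 CPM (median 299.6) in mutants. At both of these ages every mutant lay below every wild type. The differences were -0.83 (SE 0.20, adjusted p = 0.0248) and -1.09 (SE 0.21, adjusted p = 0.000923). The differences between ages were -0.70 from 24 to 36 hpf (adjusted p = 0.862) and -0.96 from 24 to 48 hpf (adjusted p = 0.344), neither past the threshold.

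The level of rpl22 did not follow. At 48 hpf rpl22 ran from 1013 to 1511 CPM (median 1395) in wild types and from 1309 to 1659 CPM (median 1633) in mutants, with 5 of 7 mutants above every wild type. Its difference was 0.19 (SE 0.10, adjusted p = 0.464), and at 24 and 36 hpf it was 0.24 (adjusted p = 0.543) and 0.00 (95% interval -0.20 to 0.19). A direct comparison used the log2 ratio of rpl22l1 to rpl22 in each embryo, each as CPM + 1. In mutants the ratio was lower by 0.52 at 24 hpf (exact two-sided permutation test, p = 0.0280, adjusted over 3 ages 0.0280), with 6 of 9 mutants below every wild type. At 36 hpf the difference was -0.87 (p = 8.23e-05, adjusted 0.000247, exact permutation test) and at 48 hpf -1.30 (p = 0.000175, adjusted 0.000262, exact permutation test). At these 2 ages the groups did not overlap, and the p-values are the smallest that the permutations can give. At 24 hpf the difference without the shallow libraries was -0.42 (adjusted p = 0.0839, exact permutation test). As a part of the pair's counts, rpl22l1 took 35.2% ± 2.05, 32.9% ± 1.12 and 31.7% ± 1.84 in wild types at the 3 ages, and 27.8% ± 6.77, 21.4% ± 5.13 and 15.9% ± 2.06 in mutants.

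Among mutants at 24 and 36 hpf rpl22l1 varied widely, and the embryos with the highest values at these 2 ages were the least advanced on the age score. At 24 hpf rpl22l1 took 0.379%, 0.456%, 0.478% and 0.581% of the summed ribosomal protein counts in mutant embryos 1, 2, 3 and 5. Their age scores were -2.76, -2.89, -2.79 and -2.60. In embryos 4, 6, 7, 8 and 9 it took between 0.208% and 0.302%, and their scores lay between -2.23 and -1.89. In wild types of that age it took between 0.413% and 0.542%, with scores from -2.64 to -1.51. At 36 hpf mutant embryos 1, 3 and 5 had 0.321%, 0.327% and 0.352%, with scores of -0.56, -0.95 and -1.24, and the other 6 had between 0.175% and 0.219%, with scores between -0.10 and 0.34. At 48 hpf all 7 mutants had between 0.144% and 0.199%, and that order was not seen: embryo 7, with 0.199%, had the highest score (2.01), and embryo 2, with the lowest score (1.10), had 0.175%. These values are a description without a test, since the embryos were set apart by these same values. The levels of rps27l, a stress-induced relative of rps27 left out by the rule, ran the other way at 24 hpf: between 83.8 and 176 CPM in embryos 1, 2, 3 and 5, and between 194 and 512 CPM in the others. At 36 hpf the rps27l ranges overlapped, with 178 to 385 CPM in mutant embryos 1, 3 and 5 and 293 to 519 CPM in the others.

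**Figure D4:**
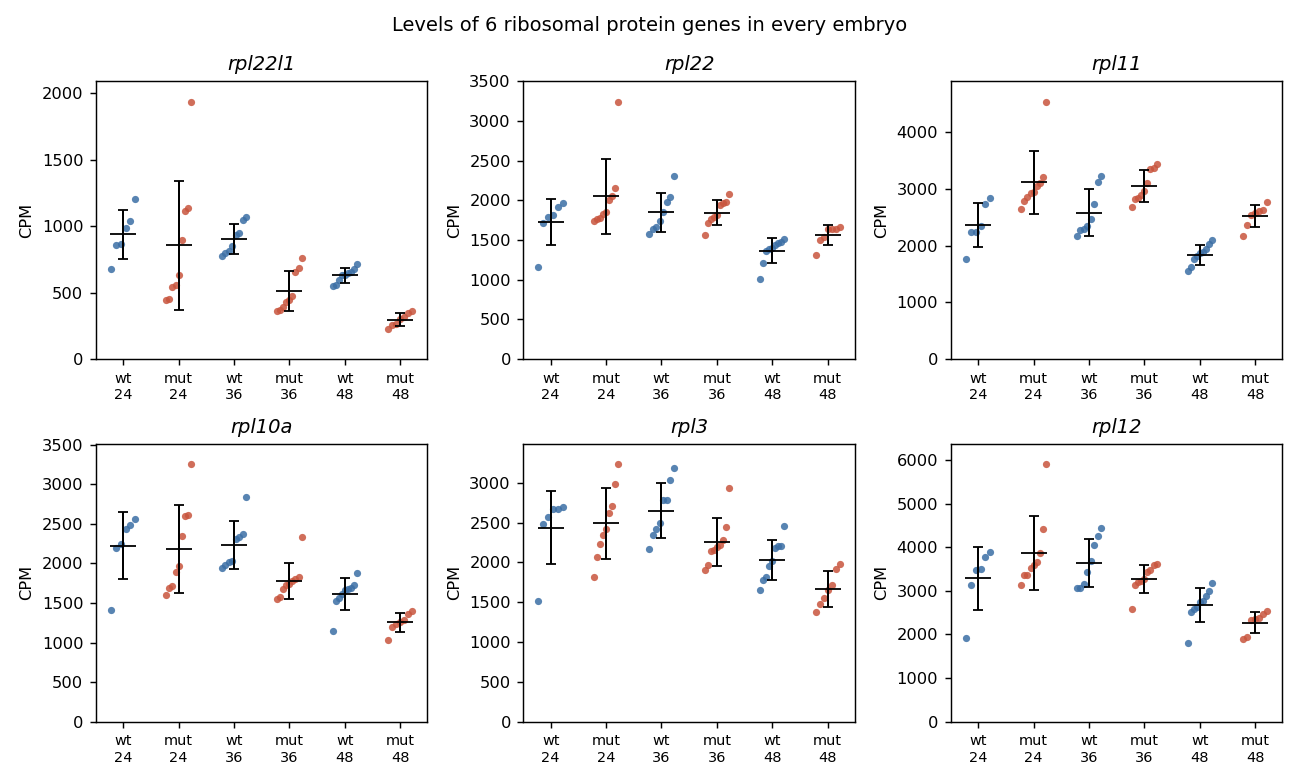
Levels (CPM, vertical axes) of rpl22l1, rpl22, rpl11, rpl10a, rpl3 and rpl12 in every embryo, by genotype (wt, mut) and age (24, 36 and 48 hpf), with 1 point per embryo, the mean and bars of 1 SD. Mutants and wild types do not overlap for rpl22l1 at 36 and 48 hpf or for rpl11 at 48 hpf.

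Of the 5S particle, the complex of 5S ribosomal RNA with Rpl5 and Rpl11 that is built before it joins the large subunit, rpl11 was higher in mutants and the rpl5 copies did not pass. At 48 hpf rpl11 ran from 1547 to 2103 CPM (median 1864) in wild types and from 2176 to 2764 CPM (median 2571) in mutants, with no overlap. The difference was 0.46 (SE 0.09, adjusted p = 0.000966), that is 37.2% higher. At 24 hpf it ran from 1760 to 2834 CPM (median 2293) in wild types and from 2639 to 4543 CPM (median 2940) in mutants, with 7 of 9 mutants above every wild type. The differences at 24 and 36 hpf were 0.40 (adjusted p = 0.0757) and 0.24 (adjusted p = 0.371). At 48 hpf rpl5a differed by 0.17 (95% interval 0.00 to 0.34, adjusted p = 0.430) and rpl5b by 0.07 (95% interval -0.13 to 0.27, adjusted p = 0.894). At 48 hpf the rpl5a part of the rpl5a and rpl5b counts was 45.6% ± 1.19 (n = 9, wild types) and 47.3% ± 0.944 (n = 7, mutants).

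The other gene higher in mutants at 48 hpf was rpl19, a large-subunit protein that forms a bridge to the small subunit. It ran from 2115 to 3145 CPM (median 2717) in wild types and from 2982 to 3660 CPM (median 3462) in mutants, with 6 of 7 mutants above every wild type. The difference was 0.33 (SE 0.09, adjusted p = 0.0161). At 24 and 36 hpf it was 0.32 (adjusted p = 0.176) and 0.22 (adjusted p = 0.353). In the small subunit no gene passed at any age, although 27, 0 and 4 of 34 had an unadjusted p under 0.05 at 24, 36 and 48 hpf, as did 7.97%, 7.59% and 11.3% of all genes. At 48 hpf rps19, whose human counterpart is the gene most often mutated in Diamond-Blackfan anaemia, gave a difference of 0.09 (adjusted p = 0.866).

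Because the set as a whole lay slightly higher in mutants at 48 hpf, each gene was also compared on the scale of the summed ribosomal protein counts of its library, a scale chosen after seeing the data. On that scale the median of all tested genes shifts by -0.19 at 24 hpf and -0.13 at 48 hpf. Built from the members, the scale also takes out the variation that they share within an embryo. Other genes need not share that variation, so the shares of all genes given on this scale are not a like background for the members. At 48 hpf 4 of the 80 genes were lower in mutants, where 0.803% of all genes were lower: rpl22l1, rpl10a, rpl3 and rpl12. Only rpl11 of the 80 was higher, where 0.517% of all genes were higher. The differences were -1.22 for rpl22l1 (SE 0.15, adjusted p = 4.47e-08), -0.48 for rpl10a (SE 0.09, adjusted p = 0.000278) and -0.40 for rpl3 (SE 0.10, adjusted p = 0.0116). They were -0.35 for rpl12 (SE 0.08, adjusted p = 0.00761) and 0.33 for rpl11 (SE 0.09, adjusted p = 0.0229). For rpl19 it was 0.21 (adjusted p = 0.302). At 36 hpf 1 gene passed on that scale, rpl22l1 at -0.81 (adjusted p = 0.000245), where 0.0669% of all genes were lower, and rpl10a missed at -0.32 (adjusted p = 0.0801). At 24 hpf edgeR called none of the 80, where 0.183% of all genes were called in either direction, and 2 had an unadjusted p under 0.05, as did 13.3% of all genes: rpl22l1 at -0.45 (adjusted p = 0.207) and rpl10a at -0.28 (adjusted p = 0.193).

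**Figure D5:**
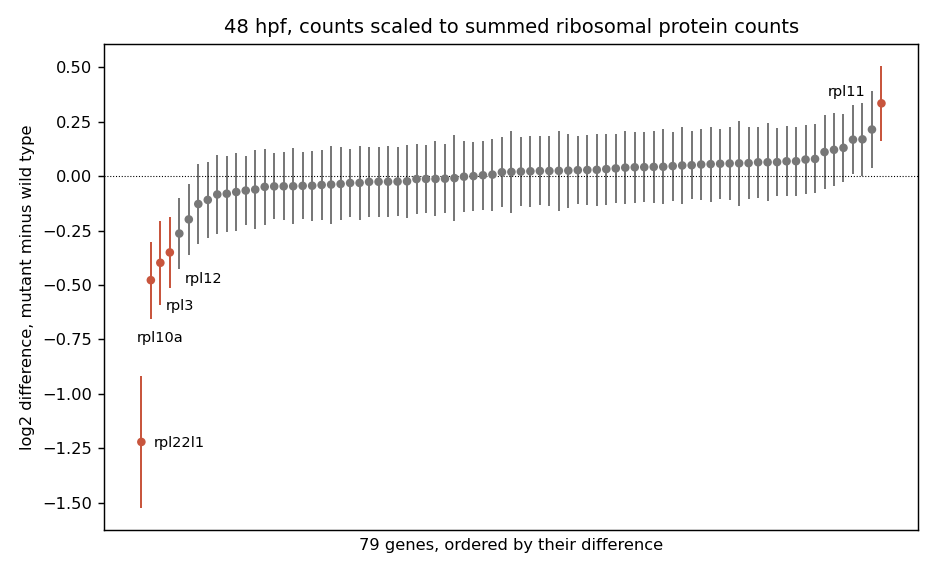
Genotype difference at 48 hpf (log2, mutant minus wild type, vertical axis) of 79 ribosomal protein genes with counts scaled to the summed ribosomal protein counts, ordered by size, bars giving 95% intervals. Red points passed the test: rpl22l1, rpl10a, rpl3 and rpl12 lie below 0 and rpl11 at 0.33 above it.

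Counted per summed ribosomal protein count, 5 of the 80 genes had all 7 mutants below all 9 wild types at 48 hpf, where 0.822% of all tested genes did. They were rpl22l1, rpl10a, rpl3, rpl12 and rps9. The genes rpl11 and rpl19 had all 7 mutants above all 9 wild types, where 0.225% of all tested genes did. For the reason given above, neither share of all genes is a like background for the members. For rpl10a, a protein of the mobile L1 stalk, the share ran from 0.935% to 1.03% in wild types (median 1.01%) and from 0.672% to 0.780% in mutants (median 0.703%). For rpl3, which reaches into the peptidyl transferase centre, it ran from 1.15% to 1.35% in wild types (median 1.27%) and from 0.777% to 1.10% in mutants (median 0.962%). For rpl12, at the base of the stalk, it ran from 1.48% to 1.74% in wild types (median 1.68%) and from 1.07% to 1.43% in mutants (median 1.32%). The share of rps9 ran from 1.09% to 1.25% and from 0.875% to 1.03%, and its difference on that scale was -0.26 (SE 0.08, adjusted p = 0.0944).

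On the CPM scale rpl22l1 passed at 48 hpf, whereas rpl10a, rpl3 and rpl12 lay lower in mutants without passing. At 48 hpf rpl10a ran from 1141 to 1873 CPM (median 1668) in wild types and from 1036 to 1401 CPM (median 1259) in mutants. Its difference was -0.36 (SE 0.11, adjusted p = 0.0724), and it passed without the shallow wild-type embryo 9 (-0.39, adjusted p = 0.0363). The difference of rpl3 was -0.28 (SE 0.10, adjusted p = 0.184) and that of rpl12 -0.24 (SE 0.11, adjusted p = 0.379). In the worm Caenorhabditis elegans rpl-3, rpl-7A, rpl-10a and rpl-12 make a second splice form with an early stop codon, which is degraded. The remaining gene of that group, rpl7a, did not differ at 48 hpf past the threshold on the CPM scale (0.16, adjusted p = 0.552), nor on the summed scale (0.04, 95% interval -0.13 to 0.22). Counts per gene do not show splice forms, so such splicing was not tested here, and rpl7a was named after the values were seen.

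Mutants at 48 hpf were also compared with wild types at 36 hpf. In that comparison 47 of 80 genes were lower, where 6.11% of all genes were lower, with a median of -0.31. The largest difference was that of rpl22l1, at -1.62 (SE 0.22, adjusted p = 4.04e-07), followed by rpl10a at -0.83 (SE 0.12, adjusted p = 1.10e-07). Next came rpl12 at -0.68 (adjusted p = 7.35e-06), rpl3 at -0.67 (adjusted p = 2.89e-06) and rps9 at -0.62 (adjusted p = 8.61e-07). In contrast rpl11 stood at -0.03 (95% interval -0.23 to 0.16) and rpl19 at 0.05 (95% interval -0.13 to 0.22), both intervals holding 0. This comparison shares the 48 hpf mutants with the genotype comparison at that age, so their values are set side by side and not as separate evidence.

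Other related pairs were also split by count. The rps27.2 part of the rps27.1 and rps27.2 counts was 37.1% ± 2.12 in wild types and 34.5% ± 3.19 in mutants of 48 hpf. Genotype differences there were -0.02 for rps27.2 and 0.15 for rps27.1, neither past the threshold. The entry rps26l took 54.1% ± 1.24 of the rps26 and rps26l counts in wild types and 53.4% ± 1.43 in mutants. By contrast the left-out relative rps27l was higher in mutants by 1.87 (SE 0.31, adjusted p = 0.00108), 2.51 (SE 0.28, adjusted p = 1.31e-07) and 2.61 (SE 0.28, adjusted p = 1.48e-08) at the 3 ages. The left-out rpl7l1, a relative of rpl7, was higher at 48 hpf by 0.48 (SE 0.11, adjusted p = 0.00488).

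Of 11 tested genes of ribosomal protein chaperones and clearance, 1 was higher in mutants at 36 hpf, where 0.615% of all genes were higher, and 3 at 48 hpf, where 1.49% were. The medians of the list were 0.31 and 0.48. These were npm1a, which encodes a nucleolar histone and ribosome chaperone (0.56, adjusted p = 0.00287, and 0.85, adjusted p = 7.77e-07), and at 48 hpf heatr3 and tsr2. HEATR3 brings RPL5 into the nucleus in human cells, and heatr3 differed by 0.76 (SE 0.18, adjusted p = 0.00753). Tsr2 escorts Rps26 in yeast, and tsr2 differed by 0.61 (SE 0.15, adjusted p = 0.0101). Of 32 other TOP messengers 2 were higher at 48 hpf, npm1a and ncl, with a median of 0.08. Of 74 mitochondrial ribosomal protein genes 3 were higher at 36 hpf and 8 at 48 hpf, against the same shares of 0.615% and 1.49% of all genes, among them mrpl39 (0.67, adjusted p = 0.00376), with medians of 0.20 and 0.25. The adapter rack1, which sits on the small subunit, differed by 0.14 at 48 hpf (adjusted p = 0.693).

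By gene symbol 79 of the 80 genes were placed in a RefSeq table of another assembly, on 24 chromosomes. Only rpl10, rps12, rps21 and rps26 lay on the chromosome of noc2l, and none of these 4 passed a genotype test. Of the tissue markers at 48 hpf 1 of 6 was lower in mutants in each of the lens, skeletal muscle and yolk syncytial layer lists. Their median differences were -0.50, -0.30 and -0.24. Over all tested genes 0.712% were lower and 1.49% higher. In the erythroid list 1 of 6 was higher and 1 lower (median 0.05). None passed among the markers of neurons (median -0.15), epidermis (0.13) and proliferating cells (-0.08). All 6 differences were negative in the skeletal muscle, yolk syncytial layer and neuron lists. The summed lens markers ran from 1027 to 1582 CPM in wild types and from 753 to 1233 CPM in mutants, and their part in the ribosomal protein values was not tested.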

How the data were processed

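Single-embryo 3′ RNA libraries of 48 embryos were made by Lasy-Seq, per the labels' protocols. Tools named in the submitters' processing notes are Salmon, BWA 0.7.17-r1188 and fastp 0.21.0, with the build GRCz11; for the annotation, the order of steps and the use of strand nothing is given in these sources. The authors deposited expected counts per gene symbol, all whole but 2 values, which were rounded. With edgeR 4.0.16 (R 4.3.3), filterByExpr (minimum count 10), TMM factors and robust quasi-likelihood fits with 1 mean per group were run on 16431 genes holding 99.8% of counts; the common biological coefficient of variation was 31.1%. Standard errors follow from the F statistic. The rpl22l1 to rpl22 ratio was tested by exact permutation with scipy 1.17.1. Alternatives were other size factors, no filter, limma voom (3.58.1), DESeq2 (1.42.0), left-out libraries, a replicate block, the age score as a covariate and fits on the groups compared alone. The model was also run on simulated counts, drawn separately for each gene. That run does not bear on genes that move together within an embryo, as these members did. Every pair of libraries in a group differed by more than sampling noise (chi-square of at least 5.46 per degree of freedom), so none repeats the counts of another. That each library is a separate embryo is taken from the labels, since this value cannot show it.

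The members and lists were chosen with earlier results of these data known. Named genes are the 5S particle, rpl22, rpl22l1, rps27.1, rps27.2, rpl10a, rps19 and rplp0, genes called in a genotype comparison or in mutants at 48 hpf against wild types at 36 hpf, the 3 extremes of each genotype comparison, and the 4 largest called changes with age. Of these the ones the results turn on are described; other members were named after their values were seen. Embryo numbers name embryos and do not pair them. Sequences were not analysed here. Values of 2 single members are not reported here.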

Additional observations from a re-analysis of the deposited data

Results flagged for a closer look

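Among 54 sets of embryos of 1 group, 16 held an embryo whose gap to its nearest neighbour was large against the range of the group; chance gives about 1 in 20, or 2.7. The sets share embryos and genes that moved together, so 1 embryo can be flagged in several sets. These numbers therefore do not measure an excess. Most of the flags concern 3 embryos. Wild-type embryo 4 at 24 hpf, with the lowest total, was low in the share of all counts taken by ribosomal protein genes (14.3%), in rpl22 (1157 CPM), rpl10a (1406 CPM) and rpl3 (1510.0 CPM). The library labelled mutant embryo 5 at 24 hpf was high in that share (28.1%), in rpl22l1 (1937 CPM), rpl22 (3243 CPM), rpl11 (4543 CPM), rpl12 (5901 CPM) and rplp2 (2242 CPM). Wild-type embryo 9 at 48 hpf was low in the share (13.3%), in rpl10a (1141 CPM) and rpl12 (1808 CPM). The other flags were mutant embryo 3 at 48 hpf for a low share (16.3%), mutant embryo 1 at 36 hpf for high rpl10a (2328 CPM) and mutant embryo 5 at 36 hpf for low rpl12 (2574 CPM).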

How the results depend on the processing

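The fall from 36 to 48 hpf in wild types covered between 73 of 80 members (no filter) and 79 of 79 (groups compared alone) under the alternatives run. Of all genes 1230 of 28461 and 1424 of 14038 fell in those 2 fits. At 24 hpf the number of members that differed by genotype was 0, and 1 with DESeq2 (rpl11 at 0.39, adjusted p = 0.0381) and with a replicate block (rpl11 at 0.44, adjusted p = 0.0404). It was 0 without wild-type embryo 4 and 0 without mutant embryo 5. Of all 16431 genes 27 were higher with DESeq2 and 15 with the block. At 36 hpf the number of members was 1, and 2 with the age score or on the groups compared alone, all of them lower. Of all 16431 genes 15 were lower, and 26 with the age score. On the groups compared alone 38 of 14038 were. At 48 hpf the number of members was 3, 5 with the age score, 5 on the summed ribosomal protein scale and 8 on the groups compared alone. It was 4 with limma voom, with a replicate block, without the shallow libraries and without wild-type embryo 9. Over all genes 245 were higher and 117 lower of 16431, and 387 and 247 of 14829 on the groups compared alone. In mutants from 24 to 36 hpf the number of members was 3, 7 without the shallow libraries and 0 on the groups compared alone. It was 2 with limma voom, a replicate block, no filter, or TMM factors set without the ribosomal protein genes, and 2 without mutant embryo 5. Over all genes 1001 rose and 817 fell of 16431. Without the shallow libraries 1098 rose and 854 fell of 16665, and on the groups compared alone 782 and 747 of 13828. In mutants from 36 to 48 hpf the number of members was 47, with a range from 32 with no filter to 68 of 79 on the groups compared alone. Of all genes 865 of 16431 fell, 724 of 28461 with no filter and 1086 of 14548 on the groups compared alone. In mutants at 48 hpf against wild types at 36 hpf the number of members was 47, from 31 with no filter to 69 of 79 on the groups compared alone. Of all genes 1004 of 16431 were lower, 837 of 28461 with no filter and 1210 of 14309 on the groups compared alone. The change of the genotype difference from 24 to 48 hpf passed for 0 members, and for 1 with the age score, which was negative. Of all 16431 genes 14 passed as negative with the age score. The rpl22l1 to rpl22 ratio at 24 hpf was -0.52, and -0.42 without the shallow libraries (adjusted p = 0.0839, exact permutation test). The cause of these shifts was not tested. Of the values of single genes under alternatives, 572 stayed on their side of the threshold, 16 came to pass and 9 no longer passed, with no change of sign among called values; rpl10a passed at 48 hpf under 7 alternatives and rpl19 missed on the summed scale. Same-numbered embryos of different groups did not deviate together (median correlation 0.03 over 109 pairs, -0.38 to 0.38, against 0.00 over 847 others), so the block shares only a number. Depth limits the values of the 3 shallow libraries.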
